A study of Mus musculus with 9 samples.

Results

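The fatty acid oxidation genes are 10 genes of mitochondrial beta-oxidation, Cpt1a, Cpt2, Acadvl, Acadl, Acadm, Hadha, Hadhb, Acaa2, Etfa and Etfb. They were chosen by name and not by their values, though earlier results of these data were known. The Ensembl identifiers of the count table were matched to gene symbols, and all 10 were found among 52550 identifiers. RNA-seq from small numbers of cells was compared between 3 types of mouse haematopoietic stem cell (HSC), with 3 libraries each. Old KO HSCs came from mice of 22 to 24 months labelled Sphk2_KO, with the strain given as B6N.129S6-Sphk2tm1Rlp/J (Sphk2 cKO). Old WT HSCs came from wild-type mice of the same ages, and young WT HSCs from wild-type mice of 2 months. Sphk2 encodes sphingosine kinase 2; no Cre driver is named in the labels, so whether the allele was lost in all cells is not given. Every library was made from 1000 bone marrow cells of femora and tibiae, sorted as Lin–, Scal1+ (as the labels write Sca-1), c-Kit+, CD48– and CD150+, and amplified by 13 cycles of PCR. The labels call the 3 libraries of a type technical replicates and name no mouse, so the p-values measure only the spread between these libraries, which may be technical.

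Beta-oxidation shortens a fatty acid by a pair of carbons per round and feeds acetyl-CoA and reduced cofactors to the respiratory chain. Cpt1a, on the outer mitochondrial membrane, joins long-chain fatty acids to carnitine and sets the pace of their entry, and Cpt2 on the inner membrane turns them back into acyl-CoA. Acadvl, Acadl and Acadm begin each round as the very-long-, long- and medium-chain acyl-CoA dehydrogenases. Hadha and Hadhb are the subunits of the trifunctional protein, which carries out the later steps on long chains, and Acaa2 is the thiolase for shorter ones. Etfa and Etfb form the electron transfer flavoprotein, which takes electrons from the dehydrogenases. Adult HSCs are known for low respiration, and fatty acid oxidation downstream of PML and PPARδ has been linked to their self-renewal.

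The old libraries held far fewer reads in genes. Counts in genes were 11284847 to 17544945 in old KO, 3145167 to 5115003 in old WT and 28088637 to 74021822 in young WT libraries, so that 1 CPM (the count scaled to the total in genes) stood for 3.15 to 74.0 counts. Counts outside genes made up 54.5% ± 8.61 in old KO, 83.6% ± 3.62 in old WT and 10.3% ± 3.29 in young WT libraries (SD, n = 3 each; exact two-sided permutation p = 0.1 for each pair, the smallest that 3 against 3 allows). Reads per kb in exons of 1122 olfactory receptor genes, which blood cells are not known to use, served as the background. It would account for 6.33% ± 2.14 of the gene counts in old KO, 29.2% ± 8.75 in old WT and 0.453% ± 0.208 in young WT libraries (SD, n = 3 each). A library was taken to hold a gene above background where its count was 20 or more and also 5 or more times what background gives for its exon length; 3948 ± 753 genes passed in old KO, 1408 ± 239 in old WT and 8600 ± 439 in young WT libraries. Markers of the sorted stem cells summed to 1735 to 3692 CPM in old KO, 601 to 1943 in old WT and 2225 to 2775 in young WT libraries. Of these 10 markers, 8 in old KO, 0 in old WT and 9 in young WT libraries were above background in 2 or more libraries, and Kit, Ly6a, Mecom and Meis1 were so in no old WT library. Erythroid markers were above background in 2 or more libraries for 0 of 6 genes in old KO, 0 in old WT and 5 in young WT, and none of 5 stroma and fat cell markers was above it in any library (13.9 to 23.3 CPM summed in old KO, 61.0 to 80.6 in old WT and 0.554 to 1.71 in young WT). Granulocyte markers passed in 2 or more libraries for 2 of 6 genes in old KO, 1 in old WT and 4 in young WT. They summed to 9.57 to 362 CPM in old KO, 31.5 to 630 in old WT and 38.8 to 172 in young WT libraries. Megakaryocyte markers passed in this way for 2 of 5 genes in old KO, 0 in old WT and 3 in young WT. For B cells these numbers were 0, 0 and 2 of 5, for T cells 0, 0 and 1, and for macrophages 0, 0 and 0. The part of other cells in the results was not tested. Sphk2 itself had 12, 23 and 8 counts in old KO, 20, 1 and 35 in old WT and 1684, 88 and 576 in young WT libraries; it was above background in the young WT libraries alone, so it does not check the KO label.

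The genes lie apart in the mouse genome except for 1 pair (GRCm38, GENCODE M21; counts are over the exons, UTRs included). The carnitine transferases are Cpt1a on chromosome 19 (3322334 to 3385733, plus strand) and Cpt2 on chromosome 4 (107903981 to 107923610, minus strand). The dehydrogenases are Acadvl on chromosome 11 (70010183 to 70015411, minus strand), Acadl on chromosome 1 (66830839 to 66863277, minus strand) and Acadm on chromosome 3 (153922357 to 153944632, minus strand). Hadha and Hadhb are neighbours that start back to back, with Hadha on chromosome 5 (30118304 to 30155162, minus strand) and Hadhb on chromosome 5 (30155248 to 30184593, plus strand). The flavoprotein subunits are Etfa on chromosome 9 (55454508 to 55512243, minus strand) and Etfb on chromosome 7 (43444083 to 43457800, plus strand).

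The promoters of 3 of the genes are shown because of their values: Acadm is the member called lower in both old types, Hadhb shares its promoter with its partner subunit, and Etfa is the member whose old KO levels all lay above the old WT ones. Each runs from 250 bases before to 50 after the start of the gene (RefSeq, GRCm38.p6), at chr3:153944594-153944893 on the minus strand for Acadm, chr5:30155003-30155302 on the plus strand for Hadhb and chr9:55512194-55512493 on the minus strand for Etfa. Capitals mark, on either strand, the nuclear receptor half-site AGGTCA, the CCAAT box CCAAT and the GC box GGGCGG.
Acadm: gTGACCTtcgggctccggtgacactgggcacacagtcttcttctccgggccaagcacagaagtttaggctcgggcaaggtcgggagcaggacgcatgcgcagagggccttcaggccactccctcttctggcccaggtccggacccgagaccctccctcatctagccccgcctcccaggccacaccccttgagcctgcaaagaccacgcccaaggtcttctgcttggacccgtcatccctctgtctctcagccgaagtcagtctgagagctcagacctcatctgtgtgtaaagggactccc
Hadhb: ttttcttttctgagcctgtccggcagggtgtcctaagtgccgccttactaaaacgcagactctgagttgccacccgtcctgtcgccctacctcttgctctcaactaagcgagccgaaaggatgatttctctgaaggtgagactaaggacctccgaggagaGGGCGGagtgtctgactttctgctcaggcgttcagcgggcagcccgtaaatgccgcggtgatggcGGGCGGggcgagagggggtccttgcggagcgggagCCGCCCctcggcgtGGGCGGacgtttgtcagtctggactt
Etfa: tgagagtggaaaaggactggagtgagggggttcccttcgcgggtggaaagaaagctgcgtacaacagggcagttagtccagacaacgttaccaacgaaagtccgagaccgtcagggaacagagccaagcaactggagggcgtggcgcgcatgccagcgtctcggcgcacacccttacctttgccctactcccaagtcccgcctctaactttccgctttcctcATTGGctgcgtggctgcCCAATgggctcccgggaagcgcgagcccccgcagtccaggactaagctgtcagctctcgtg
Promoters of 9 of the 10 members were matched. AGGTCA lay in 3 of 9 (Acadm, Acadvl and Cpt1a), against 16.3% of 32851 promoters of the same length. The CCAAT box lay in 3 (Etfa, Etfb and Cpt1a), against 37.4% of all promoters, and the GC box in 6, against 35.7%. A direct repeat of AGGTCA with 1 base between (DR1), the form that PPAR and RXR are known to bind, and TCAAGGTCA, the form bound by oestrogen-related receptors, lay in 0 of 9, against 0.0396% and 0.423% of all promoters. Both longer motifs contain AGGTCA, and such matches are descriptions of letters, not of bound sites.

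In young WT HSCs 9 of the 10 genes were clearly expressed, and in old HSCs most were not distinguishable from background. Each old KO library held 3 members above background. The old WT ones held 1, 2 and 0, and the young WT ones 8, 7 and 9. The summed level of the 10 genes was 177, 482 and 42.2 CPM in old KO, 519, 127 and 172 CPM in old WT and 254, 348 and 582 CPM in young WT libraries, so the sums overlapped. One gene often carried a sum: Acadl was 79.5% of it in the first old WT library and Cpt1a 53.5% of it in the second old KO library. In bulk libraries, fewer expressing cells and less RNA per cell cannot be told apart.

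**Figure D1:**
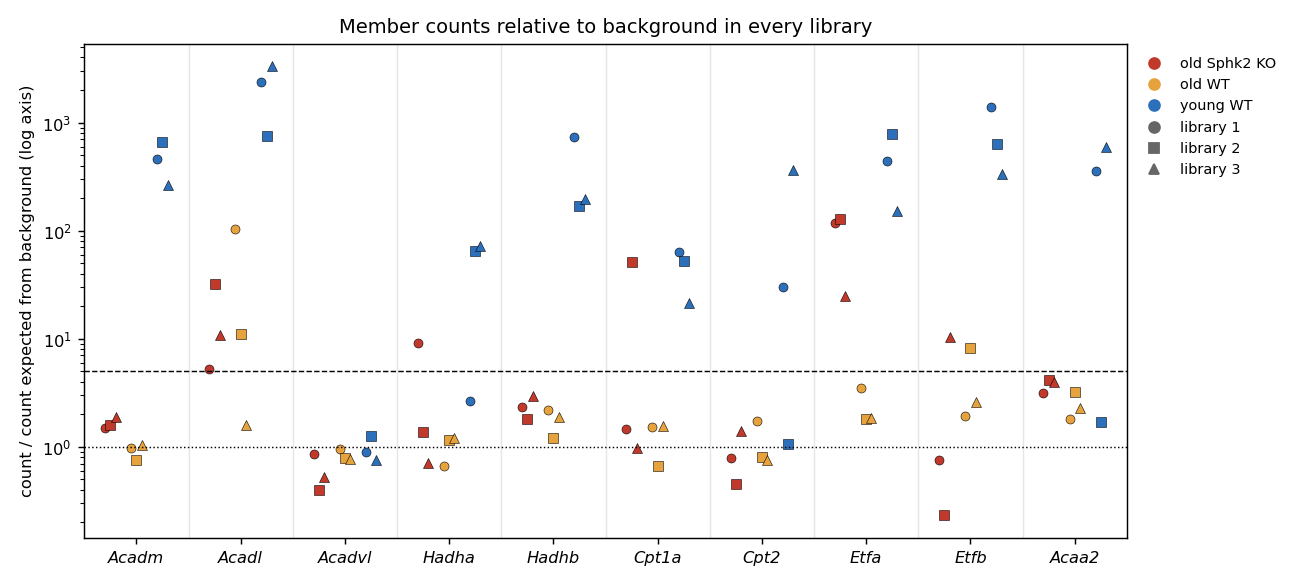
Counts of each member divided by the count that background gives over its exons (log axis), 1 point per library, with old KO, old WT and young WT side by side. For 9 genes, 2 or 3 young WT points lie far above 5 times background, while most old WT points lie near 1.

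Among young WT libraries, levels per kb of exon placed Acadl highest, at 76.6 ± 70.5 CPM per kb (SD, n = 3). Etfb (22.1 ± 5.55), Acadm (15.9 ± 10.2), Etfa (15.8 ± 14.5), Acaa2 (11.5 ± 14.9) and Hadhb (9.63 ± 2.72 CPM per kb) followed, then Cpt2 (6.03 ± 9.96), Hadha (2.07 ± 1.78) and Cpt1a (1.43 ± 0.661 CPM per kb; SD, n = 3 each). Neighbours in this order differed by less than their spread, except that Acadvl stood apart at 0.0347 ± 0.0190 CPM per kb. The young WT libraries disagreed on single genes as well, since Hadha, Cpt2 and Acaa2 were each above background in 2 of 3. Of 6308 genes at the same mean CPM, 69.0% passed the background level in all 3 young WT libraries and 22.3% in 2; of the 9 members these were 6 and 3.

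Of the entry step, Cpt1a exceeded background in every young WT library and in 1 old KO library, and Cpt2 in 2 young WT libraries alone. Cpt1a had 77, 2909 and 42 counts in old KO, 119, 29 and 125 in old WT and 612, 470 and 240 in young WT libraries. These were 5.72, 258 and 2.39 CPM in old KO, 23.3, 9.22 and 36.3 CPM in old WT and 8.27, 16.7 and 7.73 CPM in young WT. The second old KO library was the only old one above background, at 51.4 times it, and the ranges of the groups overlapped in all comparisons. The log2 fold change was 3.02 ± 1.52 for old KO against young WT and 1.95 ± 1.46 for old KO against old WT (SE); neither was called (edgeR adjusted p = 0.0960 and 0.299), and without the second old KO library they were −1.43 and −2.50. Without the third old KO library the fold change against young WT was 3.59 and called.

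Cpt2 had 13, 8 and 19 counts in old KO, 42, 11 and 19 in old WT and 91, 3 and 1300 in young WT libraries. On the CPM scale this was 0.966, 0.709 and 1.08 in old KO, 8.21, 3.50 and 5.51 in old WT and 1.23, 0.107 and 41.9 in young WT. All old libraries were at background, and the third young WT library held nearly all of the young WT signal. Cpt2 was called lower in old KO than in young WT (log2 fold change −3.96 ± 1.55, edgeR adjusted p = 0.0402, between 2.5e-04 and 0.745 over the alternatives). The call was kept in 2 of 6 fits that left out 1 library; it was lost without any 1 of the old KO libraries (−3.81 to −4.09) and with TMM factors (−5.91, edgeR adjusted p = 0.0501). Without the third young WT library that fold change was 0.43, and the one for old WT against young WT was 3.07, against −1.32 with all libraries.

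The 3 acyl-CoA dehydrogenases showed 3 patterns: Acadm was above background in young WT HSCs alone, Acadl in some old libraries too, and Acadvl in none. Acadm had 40, 46 and 42 counts in old KO, 39, 17 and 43 in old WT and 2279, 3009 and 1522 in young WT libraries. Its level was 2.97, 4.08 and 2.39 CPM in old KO, 7.62, 5.41 and 12.5 CPM in old WT and 30.8, 107 and 49.0 CPM in young WT. No old library reached the lowest young WT level, and all 6 old libraries lay between 0.764 and 1.90 times background. Acadm fell by 4.31 ± 1.21 on the log2 scale in old KO against young WT (edgeR adjusted p = 0.0121, between 8.6e-26 and 0.337 over the alternatives), and this was called in 6 of 6 fits that left out 1 library. It fell by 2.87 ± 1.14 in old WT against young WT (edgeR adjusted p = 0.0316, between 6.2e-27 and 0.142), but was called in only 2 of 6 such fits, not without the second young WT library or any 1 of the old WT libraries (−2.23 to −3.25). Relative to the median of all genes tested, the log2 fold change was −7.55 in old KO and −8.18 in old WT, each against young WT. Most of those genes sit at background in old libraries. Among genes above background in every young WT library the median was −0.71 in old KO and −1.32 in old WT. Acadm lay below those medians too, but by much less. Because the old Acadm counts are what background gives, its folds describe how far the young WT level stood above the old background rather than a ratio of measured transcripts.

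Acadl remained above background in 3 old KO, 2 old WT and 3 young WT libraries, more than any other member. It had 5.35, 42.7 and 6.95 CPM in old KO, 413, 40.1 and 9.86 CPM in old WT and 80.6, 63.4 and 317 CPM in young WT libraries. The first old WT library, with 2111 counts, held the highest level of all 9, and the old KO libraries all lay below the young WT ones. The log2 fold change was −3.07 ± 1.43 for old KO against young WT (edgeR adjusted p = 0.0750), −3.07 ± 1.43 for old KO against old WT (adjusted p = 0.169) and 0.01 ± 1.32 for old WT against young WT (adjusted p = 0.996). Without the first old WT library the last was −2.62 and that for old KO against old WT was −0.44, and without the second old KO library the one for old KO against young WT was −4.64 and called.

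Acadvl was at background in all 9 libraries, with 16, 8 and 8 counts in old KO, 26, 12 and 22 in old WT and 3, 4 and 3 in young WT. It was nonetheless called higher in old WT than in young WT (log2 fold change 5.74 ± 1.12, edgeR adjusted p = 7.5e-04, between 5.9e-04 and 0.0906 over the alternatives) and higher in old KO than in young WT (3.05 ± 1.02, adjusted p = 0.0215, between 0.0306 and 0.407). With TMM factors neither was called (1.87 and 1.06). The second call was also lost without the first old KO library (2.62), the second old KO library (3.11) or the first young WT library (2.63). The 9 libraries held 0.402 to 1.27 times the background count, and in the first of these comparisons the median log2 fold change of all genes tested was 5.30. Its exons share 42.9% of their bases with Dvl2 on the other strand, and whether the counting used strand is not given in the sources used here.

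The trifunctional protein subunits, which are made from divergent genes on chromosome 5, did not move together. Hadhb had 7.88, 7.89 and 6.33 CPM in old KO, 28.3, 14.3 and 38.6 CPM in old WT and 82.2, 46.4 and 62.0 CPM in young WT libraries. All old KO values lay below all old WT values, which lay below all young WT values, but no old library was above background. Its counts were 106, 89 and 111 in old KO and 145, 45 and 133 in old WT. These were 2.34, 1.82 and 2.98 times background in old KO and 2.17, 1.20 and 1.90 times in old WT. The CPM order of the old types was therefore not seen relative to background. Hadhb fell by 3.11 ± 1.11 on the log2 scale in old KO against young WT (edgeR adjusted p = 0.0283, between 1.2e-12 and 0.389 over the alternatives), a call lost without any 1 of the old KO libraries (−3.01 to −3.16). For old WT against young WT the log2 fold change was −1.23 ± 1.04 (edgeR adjusted p = 0.305).

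Hadha had 545, 89 and 35 counts in old KO, 59, 57 and 111 in old WT and 29, 669 and 927 in young WT libraries. Its level was 40.5, 7.89 and 1.99 CPM in old KO, 11.5, 18.1 and 32.2 CPM in old WT and 0.392, 23.8 and 29.9 CPM in young WT. The groups overlapped, and 1 young WT library was not above background. The level per kb of Hadhb was 278, 2.58 and 2.75 times that of Hadha in the young WT libraries. In the first old KO library this ratio was 0.257, the one case in which Hadha alone was above background.

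Acaa2 had 33, 47 and 34 counts in old KO, 28, 28 and 37 in old WT and 677, 3 and 1337 in young WT libraries. These were 2.45, 4.16 and 1.94 CPM in old KO, 5.47, 8.90 and 10.7 CPM in old WT and 9.15, 0.107 and 43.1 CPM in young WT. The old libraries were all at 1.82 to 4.18 times background, and the second young WT library was lower than every old one. No fold change was called with total counts. The log2 value was −2.61 ± 1.40 for old KO against young WT (edgeR adjusted p = 0.116, between 0.0010 and 0.623 over the alternatives), and it was called without the second young WT library (−3.19) and by DESeq2 (−4.96). For old WT against young WT it was −1.06 ± 1.34 (edgeR adjusted p = 0.494, between 6.4e-04 and 0.761 over the alternatives), and it was called with TMM factors (−5.13) and by DESeq2 (−4.89).

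The electron transfer flavoprotein gave the widest split between partners. Etfa had 1474, 1756 and 260 counts in old KO, 65, 19 and 36 in old WT and 1015, 1673 and 417 in young WT libraries. Its level was 110, 156 and 14.8 CPM in old KO, 12.7, 6.04 and 10.4 CPM in old WT and 13.7, 59.6 and 13.4 CPM in young WT. Etfa exceeded background in every old KO and young WT library and in none of the old WT ones, and every old KO value exceeded every old WT value. The log2 fold change for old KO against old WT was 3.26 ± 1.26, with edgeR adjusted p = 0.155; it was called by DESeq2 alone (4.60, adjusted p = 5.9e-06; highest 0.378 over the alternatives).

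Etfb had 6, 2 and 68 counts in old KO, 23, 54 and 32 in old WT and 2038, 875 and 577 in young WT libraries. On the CPM scale this was 0.446, 0.177 and 3.88 in old KO, 4.50, 17.2 and 9.28 in old WT and 27.5, 31.2 and 18.6 in young WT. The old KO values all lay below the old WT ones, and those below the young WT ones. Relative to background the old types overlapped, with 10.3 times it in the third old KO library and 1.95, 8.15 and 2.59 times in old WT. Thus in the first old KO library Etfa held 1474 counts and Etfb 6, and in the second 1756 and 2. Those Etfb counts were 0.751 and 0.232 times background, so the size of the split there is not a ratio of measured transcripts. Etfb was above background in 1 old KO, 1 old WT and 3 young WT libraries. Etfb fell by 4.09 ± 1.34 on the log2 scale in old KO against young WT (edgeR adjusted p = 0.0202, between 3.8e-06 and 0.438 over the alternatives), a call lost without the first (−3.66) or second (−3.57) old KO library. Its exons share 58.2% of their bases with Gm45233 and Mir7051 on the same strand, so the counting could have left out or split reads there.

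**Figure D2:**
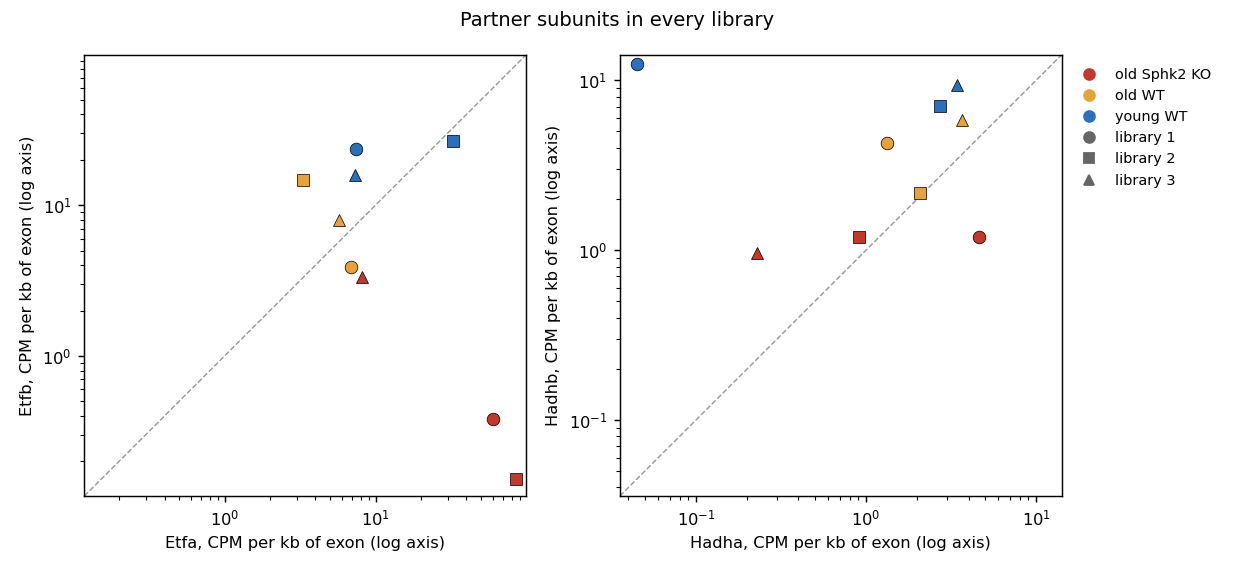
Levels of partner subunits in every library in CPM per kb of exon (log axes), 1 point per library and group. Etfa is high and Etfb low in 2 old KO libraries, and Hadhb is high and Hadha low in 1 young WT library.

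**Figure D3:**
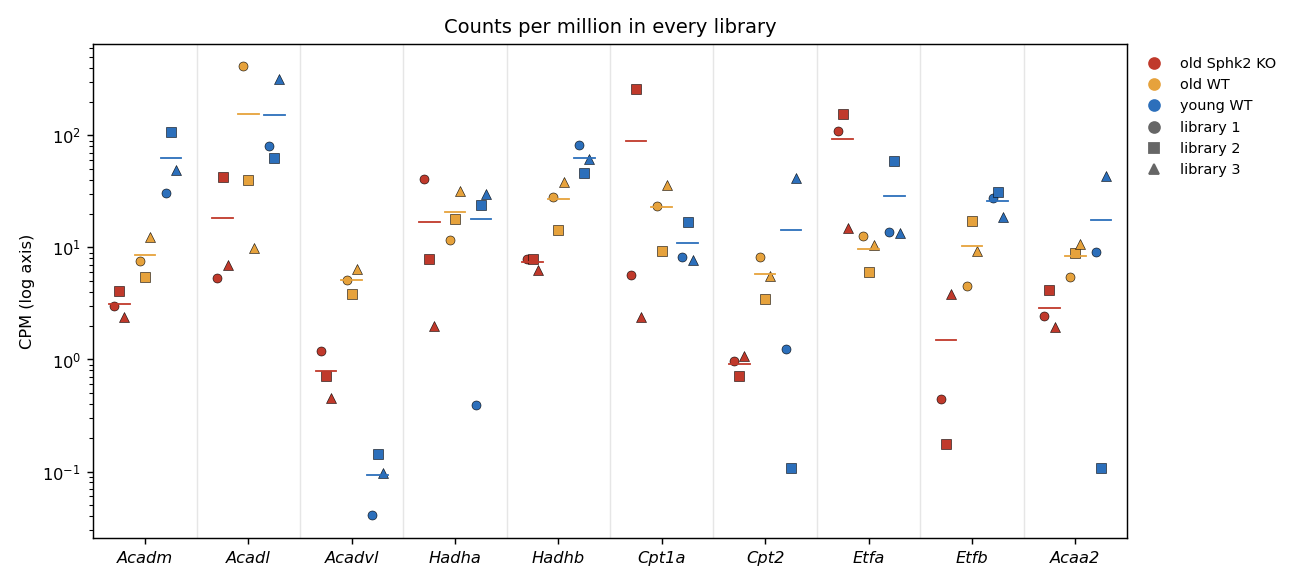
CPM of the 10 members (log axis), 1 point per library, with old KO, old WT and young WT side by side for each gene and a short line at the mean of 3 libraries. Old KO points lie below young WT points for Acadm, Acadl, Hadhb and Etfb, and Etfa is the gene whose old KO points all lie above the old WT points.

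Set against old WT HSCs, old KO HSCs showed no called change in any of the 10 genes. At an unadjusted p under 0.05, edgeR gave 1 higher (Etfa) and 3 lower (Acadl, Acadvl and Etfb), and no member was called with TMM factors and 1 (Etfa, higher) by DESeq2. DESeq2 gave no adjusted p for Cpt1a in any comparison or for Acadvl in this one, so it could not call them there. Their DESeq2 log2 fold changes here were 3.26 and −1.19. Over all 32582 genes tested, 0.00614% were called higher and 0% lower (0.457% and 0% with TMM factors, 6.07% and 0.479% by DESeq2), and 953 were higher and 8575 lower at an unadjusted p under 0.05. Among 5823 genes above background in every young WT library, 0.0343% were called higher. The CPM ranges were apart in 7 members, with Etfa above and Acadm, Acadvl, Hadhb, Cpt2, Etfb and Acaa2 below old WT. Over all genes, 1.91% had all old KO values above the old WT ones and 48.8% below (10.2% and 20.3% of the 5823 genes). The 6 lower members are thus near the share of all genes and above that of the 5823 genes. Of these 6, Acadm, Hadhb and Etfb were above background in every young WT library, and Acadm and Hadhb were so in no old library. The median log2 fold change was −1.71 over the members, −1.91 over all genes and 0.05 over those 5823 genes. Directions of Acadm, Hadha, Hadhb and Acaa2 turned positive with TMM factors.

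Between old WT and young WT HSCs, Acadm was called lower, Acadvl higher and the other 8 neither. Calls were 68.4% higher and 3.48% lower over all genes, and 1.91% higher and 19.1% lower over the genes above background in every young WT library; the 1 lower call is near those shares. All 3 old WT values lay below the young WT ones for Acadm, Hadhb, Etfa and Etfb and above them for Acadvl, against 5.87% and 65% of all genes (32.8% and 3.73% of those expressed in young WT). The median log2 fold change was −1.15 over the members and −1.32 over the genes expressed in young WT. Scaling decided these counts: TMM factors, which moved the median of all genes by −3.93, called 6 members lower (Cpt2, Acadm, Hadhb, Acaa2, Etfa and Etfb) and none higher, and DESeq2 called 8 lower and 1 higher. Over all genes, TMM factors called 18.4% lower and 18.6% higher, and DESeq2 19.8% and 31.9%. Of all called genes 95.2% were higher with total counts, 50.3% with TMM factors and 61.7% with DESeq2; only 0.512% of the 22280 genes called higher with total counts were above background in 2 or more old WT libraries.

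Between old KO and young WT HSCs, 4 genes were called lower with total counts (Acadm, Etfb, Hadhb and Cpt2), 1 higher (Acadvl, at background) and 5 neither. All 4 lower genes come from different steps: a dehydrogenase, an electron carrier subunit, a trifunctional subunit and the inner carnitine transferase. In old KO, Acadm, Hadhb and Cpt2 were above background in no library and Etfb in 1, and a fall across the steps was not tested. Lower calls made up 3.93% of all genes and higher calls 52.7%. For genes expressed in every young WT library these shares were 17.2% and 1.08%. The CPM ranges lay below young WT for Acadm, Acadl, Hadhb and Etfb, against 4.06% of all genes and 22.7% of those expressed in young WT; Acadvl lay above it, as did 53.5% and 3.49% of these genes. The median log2 fold change was −2.84 over the members, against −0.71 over the expressed genes. With TMM factors 4 members were lower (Acadm, Acadl, Hadhb and Etfb; 5.84% of all genes lower and 6.92% higher), and by DESeq2 6 (13.7% and 14.3%); 93.1% of all called genes were higher with total counts, 54.3% with TMM factors and 51.1% with DESeq2. Both comparisons with young WT use the same 3 young WT libraries. With the background count taken off each gene, 0 of 9 members were called in any of the 3 comparisons. Acadvl, above background in no library, was left out of that fit. Of 8575 genes then tested, 0.0466% were higher and 0% lower in old KO against young WT, 0.163% and 0.0233% in old KO against old WT and 0.117% and 0.0816% in old WT against young WT.

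**Figure D4:**
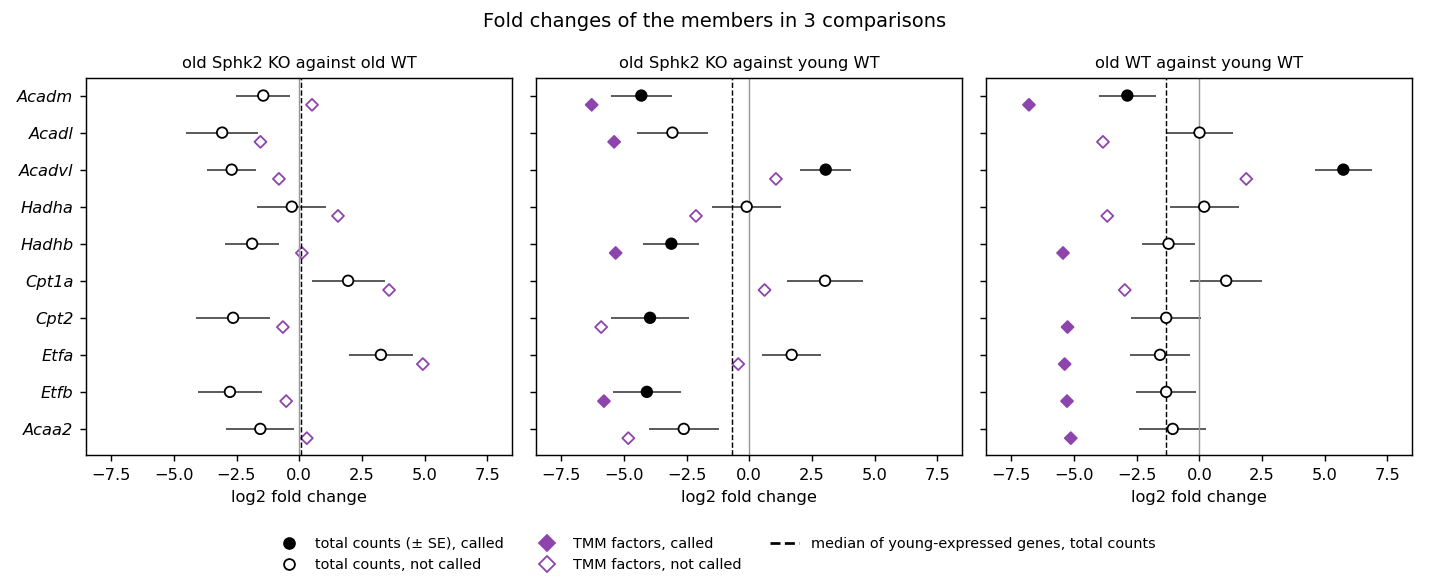
Log2 fold changes of the 10 members in 3 comparisons, with total counts (circles, bars are SE) and with TMM factors (diamonds); filled symbols were called, and the dashed line is the median of the genes expressed in young WT with total counts. With TMM factors every fold change of old WT against young WT lies further left, and Acadm lies below 0 in both comparisons with young WT under both scalings.

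Detection of the members in old libraries can be set beside that of all genes expressed in young WT HSCs. Of the 5824 genes above background in every young WT library, 27.2% were above it in no old KO library and 24.7% in all 3; among the 6 such members these were 2 (Acadm and Hadhb) and 2 (Acadl and Etfa). In old WT libraries, 73.1% of those genes and 4 of the 6 members (Acadm, Hadhb, Cpt1a and Etfa) were above background in none, and 4.95% and 0 members in all 3.

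Other genes of fatty acid metabolism were also above background in fewer old than young WT libraries, as were genes at large. Over all genes, 3948 ± 753 per library were above background in old KO, 1408 ± 239 in old WT and 8600 ± 439 in young WT (SD, n = 3 each). Whether the lists differ from all genes in this was not tested. Of 15 further mitochondrial oxidation enzymes, 4 were above background in 2 or more libraries in old KO, 1 in old WT and 13 in young WT; of 11 peroxisomal genes these were 1, 0 and 7, and of 6 carnitine shuttle genes 0, 0 and 5. In uptake and activation the numbers were 3, 0 and 7 of 12, in triglyceride release 1, 1 and 3 of 5, in the regulators 2, 0 and 4 of 12, in other PPAR targets 2, 0 and 4 of 9 and in fatty acid synthesis 1, 0 and 7 of 8. Of 77 listed genes tested, edgeR called 0 between old KO and old WT, with 2 higher and 11 lower at an unadjusted p under 0.05. DESeq2 called 12 higher and 1 lower, where 6.07% and 0.479% of all genes were. TMM factors called 0, where 0.457% of all genes were higher and 0% lower. In old KO against young WT 18 were called higher and 4 lower, where 52.7% and 3.93% of all genes were. There TMM factors called 1 and 9 (6.92% and 5.84% of all genes), and DESeq2 2 and 20 (14.3% and 13.7%). In old WT against young WT 22 were called higher and 4 lower, where 68.4% and 3.48% of all genes were. Here TMM factors called 4 and 27 (18.6% and 18.4% of all genes), and DESeq2 7 and 40 (31.9% and 19.8%). Of the genes higher with total counts, 0 in old KO and 1 in old WT were above background in 2 or more of the old libraries concerned.

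**Figure D5:**
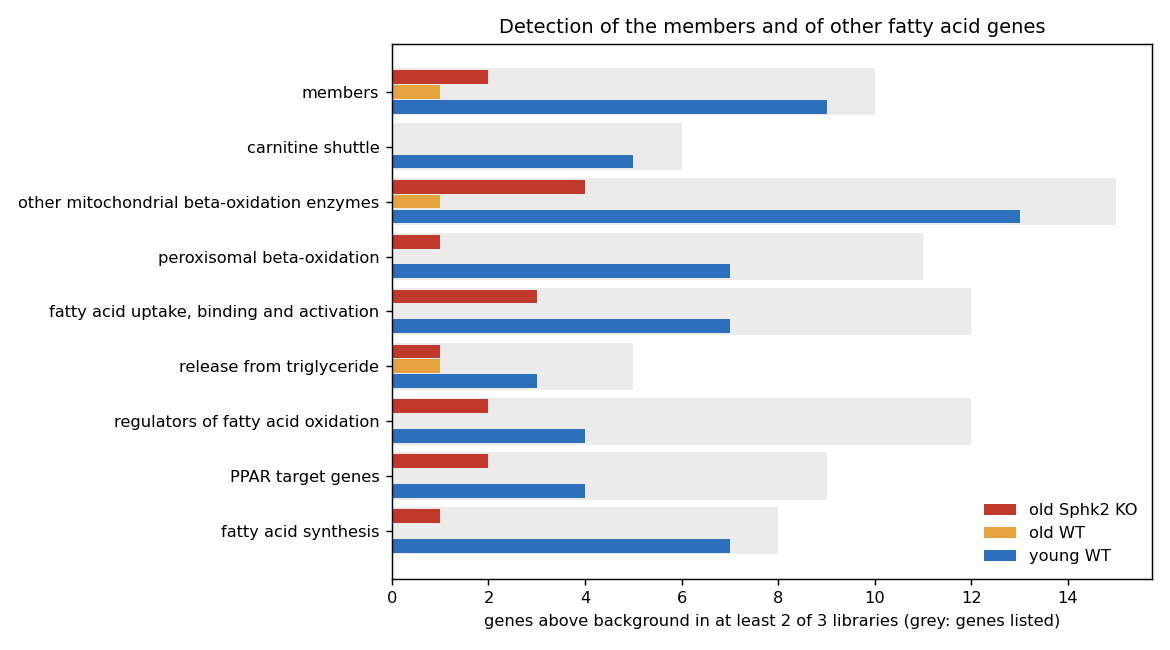
Number of genes above background in at least 2 of 3 libraries for the members and 8 other fatty acid gene lists, for old KO, old WT and young WT; grey marks the genes listed. Young WT counts are the highest of the 3 in every list, and young WT libraries also held the most genes above background over all genes.

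Acot13, a thioesterase of mitochondria, was lower in both old types, with 1.07 ± 0.270 CPM in old KO, 2.55 ± 0.552 in old WT and 30.0 ± 26.3 in young WT libraries (SD, n = 3 each). Its log2 fold change was −4.81 ± 1.21 for old KO and −3.56 ± 1.15 for old WT, each against young WT (edgeR adjusted p = 0.00974 and 0.0111). Decr1, the dienoyl-CoA reductase for unsaturated chains, had 3.65 ± 1.56 CPM in old KO against 59.4 ± 45.1 CPM in young WT (log2 fold change −4.02 ± 1.29, edgeR adjusted p = 0.0188). Acat1, a mitochondrial acetyl-CoA acetyltransferase, had 8.35 ± 5.08 CPM in old KO against 191 ± 121 CPM in young WT (−4.51 ± 1.67, edgeR adjusted p = 0.0324). In old WT it had 6.06, 9.22 and 1590 CPM, and the log2 fold change against young WT was 1.49 ± 1.48 and not called (edgeR adjusted p = 0.384). Scd2, a desaturase of fatty acid synthesis, had 11.9 ± 6.62 CPM in old WT against 163 ± 36.6 CPM in young WT (−3.78 ± 1.50, edgeR adjusted p = 0.0322). Acot13 was above background in no old library and Decr1 in no old KO library. Acat1 was above it in 1 old KO library and Scd2 in no old WT library. These lower calls thus rest on old values mostly at the level of background.

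Ppara and Pparg, nuclear receptors of fatty acid genes, were above background in no library. Ppara had 1.72 ± 0.126 CPM in old KO, 14.7 ± 7.89 in old WT and 0.0767 ± 0.0158 in young WT libraries (SD, n = 3 each), and Pparg had 2.05 ± 0.456 CPM in old KO, 10.2 ± 3.73 in old WT and 0.126 ± 0.123 in young WT libraries. Both were called higher in old WT than in young WT (log2 fold changes 7.45 ± 1.19 and 6.34 ± 1.22), with 0 libraries above background for either. Ppard, which encodes PPARδ, had 12.7, 1.60 and 0.570 CPM in old KO, 15.4, 7.95 and 18.0 CPM in old WT and 0.162, 12.8 and 0.580 CPM in young WT libraries and was above background in the second young WT library alone. Rxra, the partner of the PPARs, was above background in 2 old KO, 0 old WT and 3 young WT libraries, and Esrra, an oestrogen-related receptor, in 0 old KO, 0 old WT and 3 young WT libraries. None of these 3 was called in any comparison. Ppargc1b, Angptl4, Ucp3, Abcd2, Acaa1b, Acsl6, Slc27a2, Cd36, Lipa, Mgll and Scd1 were likewise called higher in both old types and above background in at most 1 old library. Abhd5 was called higher in old WT alone. Yet Abhd5 was above background in 0 old KO, 0 old WT and 2 young WT libraries, and Mgll in 0, 0 and 1. Slc22a5, a carnitine transporter, averaged 113 ± 191 CPM in old KO, 15.7 ± 0.871 in old WT and 49.2 ± 44.5 in young WT libraries without a call in any comparison. Cpt1c, a carnitine transferase best known from brain, averaged 6.36 ± 3.53 CPM in old KO, 14.5 ± 5.38 in old WT and 41.2 ± 61.1 in young WT libraries, also without a call.

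Across the 9 libraries the mean log2(CPM + 1) of the members was most like that of Lrrc58 (Pearson r = 0.973), followed by Usp6nl (0.934), Zcchc7 (0.928), Exoc4 (0.928) and Etfdh (0.927), out of 8931 genes. Etfdh, the oxidoreductase that takes electrons from the Etfa and Etfb complex, averaged 5.44 CPM in old KO, 18.0 CPM in old WT and 25.0 CPM in young WT libraries and was above background in the young WT libraries only. Between members, the closest pairs were Hadhb with Acadm (r = 0.869) and Acaa2 with Cpt2 (0.859), and the most opposed was Etfb with Etfa (−0.625). The points share their group and depth, so these values describe the libraries and carry no test.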

How the data were processed

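RNA was measured in 9 libraries, 3 each of old KO, old WT and young WT HSCs. The deposited table gives raw counts per Ensembl gene for each library. Per the submitters' processing notes, Trim Galore 0.6.2, STAR 2.6.1d, HTSeq 0.10.0 and edgeR 3.24.3 were used with mm10; neither annotation nor strand setting is given in the sources used here. The 5 lines that name no gene were left out of library sizes and tests; they held 45.0% to 61.9% of counts as outside genes in old KO, 80.8% to 87.7% in old WT and 6.51% to 12.5% in young WT libraries, besides ambiguous counts.

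Symbols and exons came from GENCODE M21 (GRCm38), and promoters from RefSeq. edgeR 4.0.16 (R 4.3.3) fitted all 9 libraries with the quasi-likelihood F test and Benjamini-Hochberg adjustment over 32582 genes kept by filterByExpr, called at 0.05; standard errors are |log2 fold change| divided by the root of F. The library size was the total count in genes, with no TMM factor, because TMM factors were 0.726 to 1.37 in old KO, 3.18 to 5.37 in old WT and 0.173 to 0.333 in young WT libraries, where most genes of old libraries sit at background. The densest 1% of olfactory receptor genes were left out of the background. Alternatives were TMM factors, DESeq2 1.42.0, no filter on low counts, removal of background, a block for the replicate number, and fits without each library in turn. The fitting was tested on simulated data.

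The members, gene lists and choice of scaling were made with earlier results of these data known. Besides the members and Sphk2, up to 3 called genes per list with the largest fold change were named, or, where none was called, the 2 with the highest CPM per kb in young WT; the 5 genes most like the members needed a mean of at least 10 CPM. Other names (Hadh, Dbi, Prkaa1, Pnpla2, Ppard, Rxra and Esrra) were chosen after their values were seen. Of 52550 identifiers 52403 had a symbol. Some genes that the rule or the lists give are not reported here by name.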

Additional observations from a re-analysis of the deposited data

How the results depend on the processing

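Acadm in old KO against young WT stayed negative under every alternative run and was called in all of them except removal of background (log2 fold change −5.58, adjusted p = 0.337). Members called lower in old WT against young WT, 1 with total counts, numbered 6 with TMM factors, 8 by DESeq2, 0 with background removed and 0 with the replicate block, and 0 to 1 with 1 library left out; those called higher, 1 with total counts, numbered 0 with TMM factors and 0 with background removed, and 1 to 2 with 1 library left out. In old KO against young WT, members lower, 4 with total counts, numbered 4 with TMM factors, 6 by DESeq2, 0 with background removed, 2 with the block and 1 to 5 with 1 library left out, and members higher, 1 with total counts, numbered 0 with TMM factors, 0 by DESeq2, 0 with background removed, 0 with the block and 0 to 2 with 1 library left out. In old KO against old WT, 1 member was called higher by DESeq2 and 0 under the other settings. The fit with background removed held 9 members and left out Acadvl, the member called higher with total counts, so it could not test that call. DESeq2 gave no adjusted p for Cpt1a in any comparison.

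All genes called in old WT against young WT, 22280 higher and 1134 lower, numbered 6062 and 5996 with TMM factors, 10380 and 6447 by DESeq2, 33107 and 1308 with no filter on low counts, 10 and 7 with background removed, 22192 and 950 with the block, and 22613 to 26586 and 685 to 1201 with 1 library left out. In old KO against young WT, 17158 and 1280 became 2256 and 1902 with TMM factors, 4675 and 4479 by DESeq2, 20360 and 1496 with no filter, 4 and 0 with background removed, 14965 and 676 with the block, and 11694 to 17553 and 635 to 1446 with 1 library left out. In old KO against old WT, 2 and 0 became 149 and 0 with TMM factors, 1978 and 156 by DESeq2, 30 and 86 with no filter, 14 and 2 with background removed, and 0 to 5 and 0 to 1 with 1 library left out. The other fatty acid lists, higher and lower, went to 4 and 27 (TMM factors), 7 and 40 (DESeq2), 24 and 6 (no filter), 0 and 0 (background removed), and 21 to 26 and 2 to 4 (1 library left out) in old WT against young WT; to 1 and 9, 2 and 20, 17 and 4, 0 and 0, and 13 to 21 and 2 to 7 in old KO against young WT; and to 12 and 1 by DESeq2 in old KO against old WT.

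Log2 fold changes that reversed for old KO against old WT were, with TMM factors, Acaa2 (0.30), Acadm (0.51), Hadha (1.55) and Hadhb (0.11); by DESeq2, Acadm (0.12) and Hadha (1.23); with background removed, Acadm (2.08) and Hadha (1.81); and with the block, Cpt1a (−0.27). For old KO against young WT Etfa reversed with TMM factors (−0.44) and by DESeq2 (−0.64). For old WT against young WT, Acadl (−3.84 and −3.61), Cpt1a (−2.98 and −2.87) and Hadha (−3.67 and −3.39) reversed with TMM factors and DESeq2, Hadha with background removed (−2.17), and Acadl (−0.73) and Cpt2 (0.73) with the block. With 1 library left out, reversals gave ranges of −2.50 to 2.52 for Cpt1a and −2.06 to 0.23 for Hadha in old KO against old WT; −1.43 to 3.59 for Cpt1a, −4.54 to 0.43 for Cpt2 and −1.87 to 0.47 for Hadha in old KO against young WT; and −1.64 to 0.85 for Acaa2, −2.62 to 1.10 for Acadl, −1.90 to 3.07 for Cpt2 and −0.38 to 0.77 for Hadha in old WT against young WT. The cause was not tested.

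The replicate numbers do not pair the libraries: deviations of same-numbered libraries correlated at −0.0256 to 0.0350 over 8938 genes, so the fit with the replicate block shows only how the calls move. Depth and background limit the old WT libraries most: members at the level of background there were not detectable, which does not show that they are absent.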

Other observations

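The values of 4 other fatty acid genes, chosen after they were seen, follow. Hadh, the dehydrogenase for short-chain hydroxyacyl-CoA, had 20.1, 272 and 179 CPM in old KO, 3.71, 915 and 506 CPM in old WT and 11.8, 30.4 and 65.8 CPM in young WT libraries. It was called higher in old WT than in young WT (log2 fold change 3.72 ± 1.48, edgeR adjusted p = 0.0326), and the first old WT library lay below all young WT libraries. Dbi, which binds acyl-CoA, had 88.8, 57.2 and 186 CPM in old KO, 7.04, 4.77 and 5.80 CPM in old WT and 41.5, 91.8 and 46.4 CPM in young WT libraries. It was called lower in old WT than in young WT (−3.35 ± 1.13, edgeR adjusted p = 0.0138), while the value for old KO against old WT was 4.23 ± 1.17 and not called (adjusted p = 0.148). Dbi was above background in 3 old KO, 0 old WT and 3 young WT libraries, so both fold changes rest on old WT values not above background.

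Prkaa1, a catalytic subunit of AMP-activated kinase, had a mean of 1.82 CPM in old KO, 15.4 CPM in old WT and 97.4 CPM in young WT libraries. It was called lower in old KO than in young WT (log2 fold change −5.74 ± 1.37, edgeR adjusted p = 0.00919). Neither old WT against young WT (−2.66 ± 1.19, edgeR adjusted p = 0.0553) nor old KO against old WT (−3.09 ± 1.22, adjusted p = 0.156) was called. Prkaa1 was above background in 0 old KO, 0 old WT and 3 young WT libraries. Pnpla2, the adipose triglyceride lipase, had 12.0, 199 and 95.0 CPM in old KO, 2196, 402 and 36.3 CPM in old WT and 164, 5.87 and 116 CPM in young WT libraries, and its groups overlapped.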
